A study of Homo sapiens with 72 samples.

Results

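The HOX genes described here were the 39 genes of the deposited table whose symbol is HOX followed by the cluster letter A, B, C or D and a number, out of 62266 genes. All 39 human members were present: 11 in cluster A, 10 in cluster B, 9 in cluster C and 9 in cluster D. In GRCh38 coordinates of GENCODE 44, cluster A spanned chr7:27092993-27200091, cluster B chr17:48528526-48728750, cluster C chr12:53938831-54056030 and cluster D chr2:176092721-176190907. Over the 24 libraries of a line, 35 members reached a mean of 0.1 CPM (counts per library scaled to a common total) or more in the Ecto line, 25 in the Endo line and 34 in the VK2 line.

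HOX genes encode homeodomain transcription factors that give cells their position along the body axis. Within a cluster, genes at the 3′ end (low numbers) are used early and anteriorly in the embryo, and genes at the 5′ end (high numbers) late and posteriorly, a rule called colinearity. Polycomb proteins keep unused stretches of a cluster silent, and TALE homeodomain proteins of the PBX and MEIS families bind DNA together with HOX proteins. In the developing female tract, described mostly in the mouse, HOXA9, HOXA10, HOXA11 and HOXA13 mark successive stretches of the Mullerian duct, the embryonic duct that forms oviduct, uterus, cervix and upper vagina, and their regional use persists in the adult.

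The study asked how polyamines change the response of cervicovaginal epithelium to *Gardnerella vaginalis* (GV), a bacterium of non-optimal vaginal microbiota. Each line had 8 groups of 3 libraries, 72 in all: cells given spermine (SPM) or spermidine (SPD), each at 400 µM, or putrescine (PUT) at 4 mM for 4 h and then exposed to live GV (10000000 CFU per well) for 24 h, cells with GV and no polyamine (NT+GV), cells with a polyamine and no GV (PUT+noGV, SPD+noGV, SPM+noGV), and untreated cells (NT+noGV). The lines are ectocervical (Ecto, Ect/E6E7), endocervical (Endo, End1/E6E7) and vaginal (VK2, VK2/E6E7) human epithelial cells immortalized with papillomavirus E6 and E7, all grown in keratinocyte serum-free medium, and each is 1 line, so that line and donor cannot be told apart. Whether replicates came from separate cultures was not stated, so that p-values measure the spread between these libraries, which may be technical.

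Library totals ran between 20152143 and 42767996 counts (median 31872238.5). One library stood apart: Ecto SPD+noGV replicate 3 differed from its replicates by a chi-square per degree of freedom of 39.2 and 36.2, against 2.65 between the other two. Without it, the HOX counts that rest on it were again 0 (SPD+noGV against NT+noGV), 3 (SPM+noGV against SPD+noGV) and 2 (difference by GV for SPD), and the fits of the other comparisons without it are described in the closing section. The 6 squamous epithelium markers (TP63, KRT5, KRT14, KRT6A, KRT13 and DSG3) summed to between 7326 and 7681 CPM in untreated Ecto, between 20065 and 20556 CPM in Endo and between 35922 and 37176 CPM in VK2. The 6 simple epithelium markers (KRT7, KRT8, KRT18, KRT19, EPCAM and MUC16) summed to between 3741 and 3978 CPM in Endo, below the squamous sum of that line. They summed to between 4383 and 4620 CPM in Ecto and between 2254 and 2388 CPM in VK2. KRT7 averaged 13.9, 1422 and 2 CPM and KRT19 957, 1955 and 1221 CPM in untreated Ecto, Endo and VK2. KRT8 averaged 1916, 119 and 451 CPM and KRT18 1408, 208 and 526 CPM in these lines. The 7 Mullerian factors summed to between 24.9 and 27.8 CPM in Ecto, between 45.3 and 51.6 CPM in Endo and between 12.2 and 12.9 CPM in VK2. PAX8 averaged 10.2 CPM in Ecto, 48.4 CPM in Endo and 3.43 CPM in VK2. In the same order, ESR1 averaged 10.7, 0.879 and 8.32 CPM and LHX1 5.55, 0.0471 and 0.703 CPM. PGR and EMX2 were at 0 in the untreated libraries of all 3 lines. Leukocyte markers summed to at most 6.63 CPM and endothelial markers to at most 2.24 CPM in untreated cells. In such bulk libraries, fewer cells that express a gene and less of its RNA per cell cannot be told apart.

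The results turn on a few members, whose promoters are shown so that they can be compared with the levels that follow. The RefSeq promoter windows (GRCh38.p14, 250 bases before to 50 bases after the transcription start, 5′ to 3′ on the gene's strand) held 20 of the 39 symbols in 27 windows. Capitals mark the letters of a motif searched on both strands. HOXD10 and HOXD11 separated Ecto from the other lines, HOXA9 was among the highest members of every line, and HOXD1 was among the members that rose most with SPM and GV.
HOXD10 (chr2:176116528-176116827, plus strand, no motif found): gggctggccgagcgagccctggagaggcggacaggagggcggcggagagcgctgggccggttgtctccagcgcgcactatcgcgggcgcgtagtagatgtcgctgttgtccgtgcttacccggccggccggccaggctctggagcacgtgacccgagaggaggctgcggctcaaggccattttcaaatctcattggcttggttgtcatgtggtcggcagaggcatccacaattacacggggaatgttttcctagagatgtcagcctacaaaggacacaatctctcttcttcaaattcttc
HOXD11 (chr2:176107030-176107329, plus strand, HOX-PBX element in capitals): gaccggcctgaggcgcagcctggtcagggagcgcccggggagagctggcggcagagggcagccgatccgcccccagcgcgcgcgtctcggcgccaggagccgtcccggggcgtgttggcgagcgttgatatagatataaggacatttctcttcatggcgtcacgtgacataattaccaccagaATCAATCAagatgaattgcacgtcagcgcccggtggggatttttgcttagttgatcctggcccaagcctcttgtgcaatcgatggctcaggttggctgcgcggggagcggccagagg
HOXA9 (chr7:27165488-27165787, minus strand, EGR element in capitals): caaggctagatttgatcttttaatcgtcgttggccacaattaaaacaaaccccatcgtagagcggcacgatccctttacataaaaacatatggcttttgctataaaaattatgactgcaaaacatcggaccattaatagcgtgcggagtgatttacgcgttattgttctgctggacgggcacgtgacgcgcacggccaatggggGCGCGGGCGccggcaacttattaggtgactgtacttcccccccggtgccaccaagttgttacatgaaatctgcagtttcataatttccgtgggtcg
HOXD1 (chr2:176188418-176188717, plus strand, EGR element in capitals): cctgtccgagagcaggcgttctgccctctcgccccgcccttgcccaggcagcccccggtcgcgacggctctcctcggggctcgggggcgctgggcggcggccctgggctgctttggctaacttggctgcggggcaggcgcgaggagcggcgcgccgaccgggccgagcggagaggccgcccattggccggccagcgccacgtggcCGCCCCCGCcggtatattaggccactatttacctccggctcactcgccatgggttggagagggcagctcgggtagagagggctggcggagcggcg

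An EGR element (GCGNGGGCG) was found in 3 of the 27 HOX windows (11.1%), those of HOXD1, HOXA7 and HOXA9, against 9.43% of all 35116 promoter windows. A HOX-PBX element (TGATNNAT) was found in another 3 (11.1%), those of HOXD11, HOXA2 and HOXB1, against 7.4% of all windows. None of the 27 windows held the AP-1 letters TGANTCA, the CRE letters TGACGTCA or the retinoic acid receptor letters AGGTCA, which stood in 7.71%, 1.85% and 13.8% of all windows, and no window held both motifs found, so that matches did not overlap. The HOX windows had a median of 22 CpG, against 14 over all windows, at a GC content of 58.0% against 58.7%. Several windows are alternative starts of HOXA3, and HOXC4 and HOXC5 have the same window, so that these shares and medians weight genes unequally. HOXA5 had no window. A match is a description of the letters, not of a bound site.

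In untreated cells, HOXB7 and HOXA9 had the highest mean levels per kb of exon in each line, while the lines differed most in the posterior members of clusters A, C and D. Levels of different genes are compared here as CPM per kb of exon, and their order depends on this scale. In CPM not divided by length, untreated Endo had HOXB3 at 16.7, HOXB7 at 15.8, HOXA3 at 12.7 and HOXA9 at 10 on average. HOXB7 stood highest in Ecto at 15.2, 16 and 15.7 CPM per kb and in Endo at 9.8, 10.8 and 10.5 CPM per kb, and was second in VK2 at 11.3, 9.76 and 12 CPM per kb. HOXA9 was second in Ecto (11.4, 11.3 and 11.3 CPM per kb), nominally second in Endo (3.48, 3.37 and 3.07 CPM per kb) and highest in VK2 (16.9, 18.3 and 17.9 CPM per kb). HOXB7 and HOXA9 stood apart from the members below them in each library of Ecto and VK2, whereas in Endo HOXA9, HOXB2 and HOXA3 (2.94 to 3.31 CPM per kb on average) overlapped with their neighbours in the order.

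All HOX members together summed to 81.6 ± 1.25 CPM per kb in Ecto, 42 ± 0.617 CPM per kb in Endo and 66.4 ± 0.426 CPM per kb in VK2 (SD, n = 3 each). Cluster A took 24.4 ± 0.163, 16.3 ± 0.167 and 35.7 ± 0.855 CPM per kb in Ecto, Endo and VK2. Cluster B took 29.5 ± 0.306 CPM per kb in Ecto, 21.3 ± 0.648 in Endo and 20.3 ± 0.569 in VK2. Cluster C was the lowest in Ecto and Endo, with 4.22 ± 0.203 and 0.595 ± 0.116 CPM per kb, and reached 5.65 ± 0.229 CPM per kb in VK2. Cluster D held 23.4 ± 1.04 CPM per kb in Ecto, against 3.75 ± 0.279 in Endo and 4.69 ± 0.332 in VK2. Each line thus had its own balance of clusters: B, A and D in Ecto, B and A in Endo, and A above B in VK2.

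**Figure D1:**
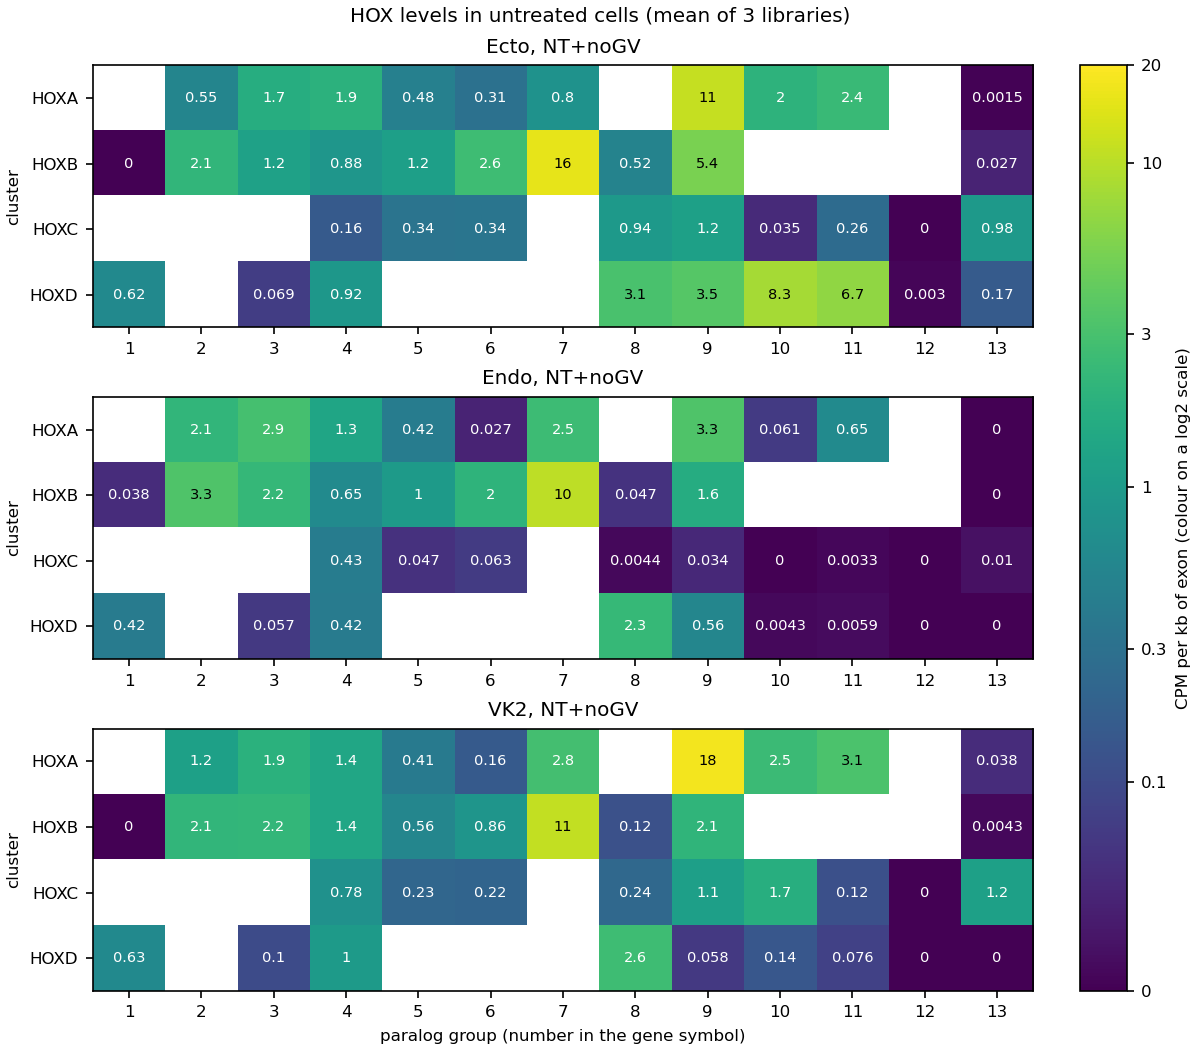
Mean level of HOX genes over the 3 untreated (NT+noGV) libraries of Ecto, Endo and VK2, in CPM per kb of exon, with the cluster down the side, the paralog number across, the value written in each cell and the colour on a log2 scale; blank cells show no value. On this scale, HOXB7 and HOXA9 had the highest means in every line, and HOXD10 and HOXD11 stood at 8.34 and 6.69 CPM per kb in Ecto and near 0 in Endo.

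Between lines, 34 HOX members of 21195 genes could be tested. Ecto was at least 2-fold higher than Endo for 18 members (12.5% of all genes tested) and at least 2-fold lower for 3 (13.3% of all genes). Against VK2, Ecto was at least 2-fold higher for 10 members and at least 2-fold lower for 4, against 12.5% and 13% of all genes. Endo was at least 2-fold higher than VK2 for 2 members and at least 2-fold lower for 15, against 10.6% and 10.7% of all genes. The share of members at least 2-fold lower in Endo was above the share of all genes in both of its comparisons. This describes the levels and is not a test of them. In Endo alone 23 members passed the filter on low counts, against 33 in Ecto and 32 in VK2. Members such as HOXC8, HOXC13, HOXD10 and HOXD11 entered the comparison through the other lines, and could hardly be other than lower in Endo.

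In cluster A, the members that mark the Mullerian duct were low in Endo. HOXA10, a regulator of uterine development and receptivity, stood at 2.11, 1.9 and 1.88 CPM per kb in Ecto, 0.0503, 0.0901 and 0.0435 in Endo and 2.67, 2.4 and 2.45 in VK2. No Endo library came near those of the other lines, and HOXA10 was higher in Ecto than in Endo by 4.98 ± 0.18 on the log2 scale (edgeR adjusted p = 6.3e-35) and lower in Endo than in VK2, at -5.33 ± 0.18 (edgeR adjusted p = 8.1e-37). The difference between Ecto and VK2 was small, at -0.35 ± 0.10 (edgeR adjusted p = 0.0011). HOXA9 differed in the same order, with Ecto above Endo by 1.78 ± 0.06 (edgeR adjusted p = 6e-35) and Endo below VK2 at -2.42 ± 0.06 (edgeR adjusted p = 2.8e-42). Of the exonic bases of HOXA9, 15.9% are shared with other loci on its strand, so that some of its reads may belong to them.

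HOXA11, used in the lower uterus and cervix of the mouse, had 2.3, 2.53 and 2.48 CPM per kb in Ecto, 0.629, 0.826 and 0.483 in Endo and 2.96, 3.57 and 2.91 in VK2. It was higher in Ecto than in Endo by 1.91 ± 0.13 (edgeR adjusted p = 2.5e-21) and differed little between Ecto and VK2 (-0.37 ± 0.10, edgeR adjusted p = 0.0012). HOXA13, the most posterior member and a marker of the mouse vagina, was near the limit of detection everywhere: 0, 0 and 0.00456 CPM per kb in Ecto, 0 in each Endo library, and 0.0421, 0.0539 and 0.0187 in VK2, the vaginal line. Its 17 counts over the untreated VK2 libraries against 1 count over those of Ecto gave a ratio of 20.9 (95% counting interval 3.75 to 826), and against 0 counts in Endo it was at least 5.52-fold higher in VK2, at a floor of 3 counts over the group. Such intervals cover counting error only. Not all members were lowest in Endo: HOXA2 was lower in Ecto than in Endo, at 0.549 ± 0.0603 against 2.13 ± 0.215 CPM per kb, and so was HOXA7, at 0.8 ± 0.0136 against 2.54 ± 0.212 CPM per kb (SD, n = 3 each).

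In cluster B, HOXB7 itself differed little between lines, with Ecto above Endo by 0.59 ± 0.08 (edgeR adjusted p = 6.6e-10), Ecto above VK2 by 0.50 ± 0.08 (edgeR adjusted p = 5e-08) and Endo at -0.09 ± 0.08 against VK2, which did not pass the test (edgeR adjusted p = 0.34). Its 5′ neighbours leaned to Ecto. HOXB8 measured 0.568, 0.456 and 0.529 CPM per kb in Ecto, 0.0311, 0.0694 and 0.0402 in Endo and 0.0762, 0.114 and 0.171 in VK2, and was higher in Ecto than in Endo by 3.41 ± 0.43 (edgeR adjusted p = 2.2e-10) and than in VK2 by 2.10 ± 0.37 (edgeR adjusted p = 8.7e-07). The smaller difference of HOXB8 between Endo and VK2 (-1.31 ± 0.54, edgeR adjusted p = 0.03) was lost without Endo NT+noGV replicate 1, without Endo NT+noGV replicate 3 or without VK2 NT+noGV replicate 3, with an adjusted p of up to 0.19. HOXB9 stood at 6.08, 4.88 and 5.17 CPM per kb in Ecto, against 1.31, 1.73 and 1.87 in Endo and 2.27, 2.26 and 1.75 in VK2. HOXB1 averaged 0.0948 CPM in Endo and was at 0 in the untreated libraries of Ecto and VK2.

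Cluster C was close to silent in Endo. HOXC9 had 1.2, 1.16 and 1.15 CPM per kb in Ecto, 0.0224, 0.0601 and 0.0194 in Endo and 1.26, 1.01 and 1.17 in VK2, so that Ecto was above Endo by 5.0 ± 0.36 on the log2 scale while Ecto and VK2 overlapped (0.02 ± 0.20, edgeR adjusted p = 0.95). HOXC13, known for its role in hair and nails, followed the same pattern, with 262 counts over the untreated Ecto libraries against 2 over those of Endo, a ratio of 104 (95% counting interval 28.7 to 857), and 250 in VK2, a ratio of 122 (33.7 to 1010). HOXC8 had 255 counts in Ecto against 1 in Endo (ratio 202, interval 36.3 to 7980). HOXC10 followed another order: 0.0308, 0.0637 and 0.00975 CPM per kb in Ecto, 0 in each Endo library and 1.63, 1.76 and 1.84 in VK2. With 372 counts over the VK2 libraries and 0 over those of Endo, HOXC10 was at least 121-fold higher in VK2 than in Endo, and Ecto was below VK2 at -5.75 ± 0.38 on the log2 scale (edgeR adjusted p = 2.2e-19).

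The exception within the cluster was HOXC4, at its 3′ end, which was the highest member of cluster C in Endo. It had 0.123, 0.15 and 0.201 CPM per kb in Ecto, 0.337, 0.543 and 0.42 in Endo and 0.706, 0.776 and 0.867 in VK2, with no overlap between lines. Ecto was below Endo at -1.44 ± 0.26 (edgeR adjusted p = 1.8e-06) and below VK2 at -2.29 ± 0.25 (edgeR adjusted p = 9.7e-13). HOXC4, HOXC5 and HOXC6 share 17.5%, 67.3% and 16.1% of their exonic bases with other loci on the same strand, so that their counts, those of HOXC5 above all, are uncertain. HOXC12 was at 0 in the untreated libraries and did not reach 0.1 CPM in any line.

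Cluster D set Ecto apart. HOXD10, which acts in limb patterning, had 8.49, 7.85 and 8.67 CPM per kb in Ecto and averaged 0.00432 CPM per kb in Endo and 0.144 CPM per kb in VK2. Over the 3 untreated libraries these were 2317 counts in Ecto against 1 in Endo, a ratio of 1840 (95% counting interval 330 to 72500), and Ecto was above VK2 by 5.85 ± 0.14 on the log2 scale (edgeR adjusted p = 6.3e-41). HOXD11, its 5′ neighbour, had 7.01, 6.11 and 6.94 CPM per kb in Ecto and 1586 counts against 1 in Endo (ratio 1260, interval 226 to 49600), and was above VK2 by 6.48 ± 0.20 (edgeR adjusted p = 1.1e-37). Of the exonic bases of HOXD10 and HOXD11, 18.2% and 21.4% are shared with other loci on their strand. HOXD13 was seen in Ecto (42 counts) and at 0 in the untreated libraries of Endo and VK2, at least 11.1-fold and 11.4-fold higher in Ecto.

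HOXD9 formed a gradient in another order: 3.83, 3.59 and 3.2 CPM per kb in Ecto, 0.658, 0.553 and 0.483 in Endo and 0.0979, 0.0417 and 0.0337 in VK2, with Ecto above Endo by 2.65 ± 0.19 (edgeR adjusted p = 3.9e-20) and Endo above VK2 by 3.20 ± 0.37 (edgeR adjusted p = 2.2e-11). HOXD8, the next gene towards the 3′ end, was alike in level: 3.24, 3.1 and 2.92 CPM per kb in Ecto, 2.2, 2.37 and 2.27 in Endo and 2.79, 2.64 and 2.53 in VK2. It was the highest member of cluster D in Endo and VK2, and its largest difference, Ecto above Endo, was 0.44 ± 0.10 (edgeR adjusted p = 7.2e-05). Within cluster D, the lines thus differed by orders of magnitude at HOXD10 and by less than 2-fold at HOXD8. HOXD12 had 1 count over the untreated libraries and did not reach 0.1 CPM in any line.

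**Figure D2:**
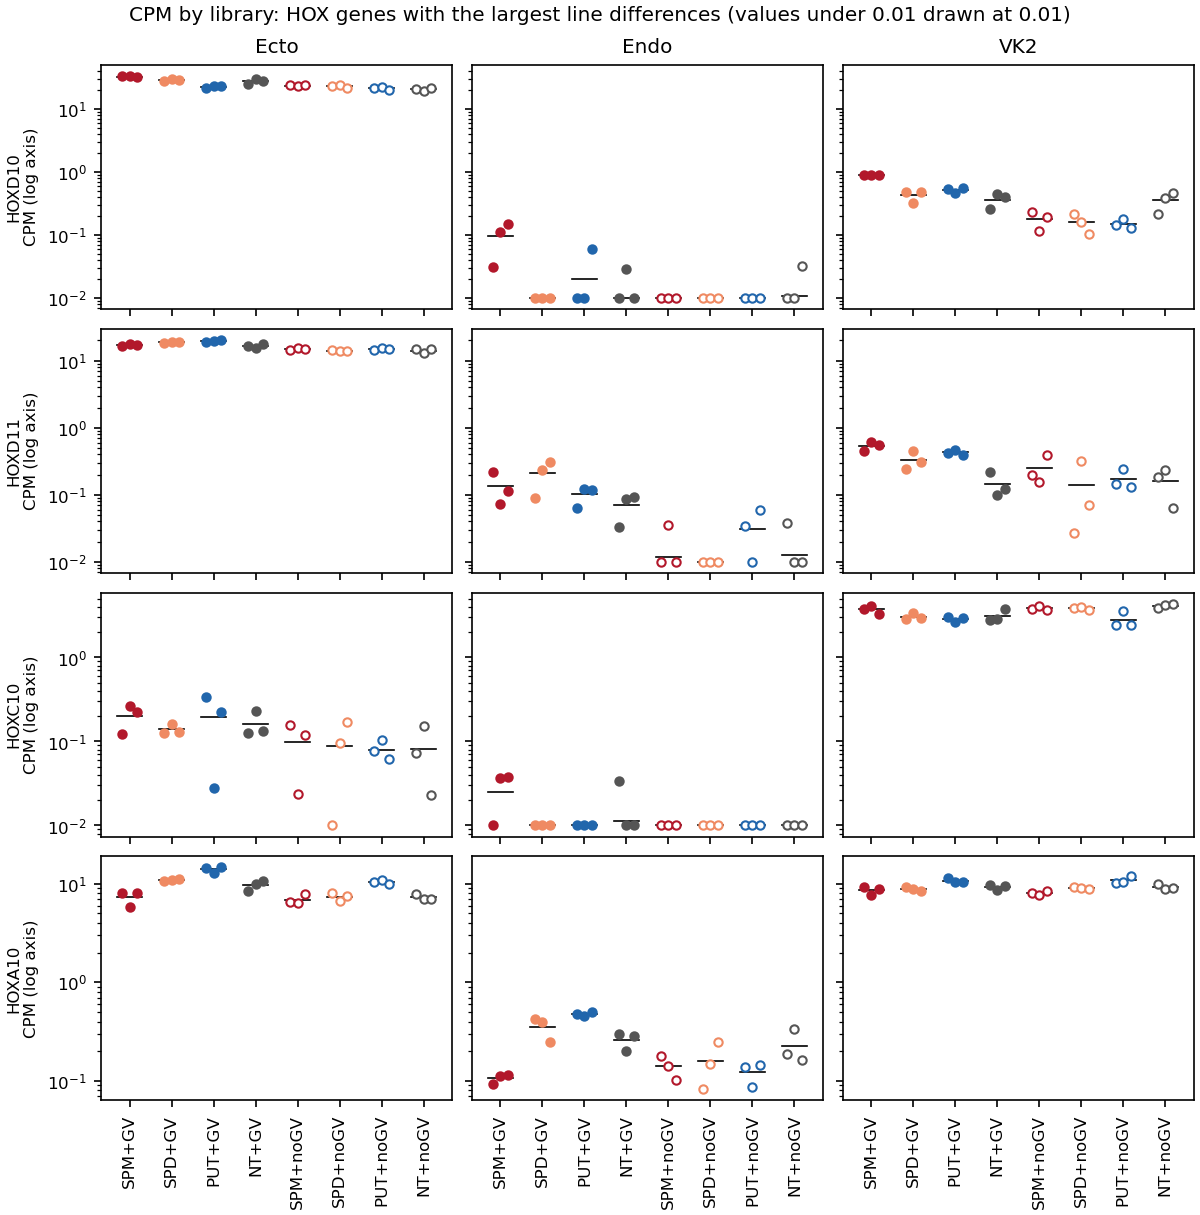
CPM of HOXD10, HOXD11, HOXC10 and HOXA10 in all 72 libraries, on log axes, by line and condition; points are libraries (filled with GV, open without), lines are means, and values under 0.01 CPM are drawn at 0.01. By group means, in every condition HOXD10 and HOXD11 were highest in Ecto, HOXC10 was highest in VK2, and HOXA10 was lowest in Endo.

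With GV alone, more HOX members rose than fell in Ecto, more fell than rose in Endo, and few changed in VK2. In Ecto, 10 of 33 tested members rose and 1 fell in NT+GV against NT+noGV, beside 20.9% and 23.7% of all 19459 genes tested; the median HOX log2 change was 0.21, against 0.00 over all genes. In Endo, 3 of 23 rose and 9 fell, beside 25.7% and 28.7% of 18741 genes, with a median of -0.08. In VK2, 0 of 32 rose and 3 fell, beside 13.9% and 12.5% of 18474 genes, with a median of -0.16. No member of the 22 tested in all 3 lines rose in each and none fell in each, beside 4.81% and 6.34% of all 16963 genes tested in all 3. The VK2 count was 5 changed members without VK2 NT+GV replicate 3.

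In Ecto, the members that rose with GV included HOXA7, at 3.03, 3.9 and 3.92 CPM in NT+GV against 1.9, 1.96 and 1.92 CPM in NT+noGV (log2 change 0.90 ± 0.14, edgeR adjusted p = 6.4e-06). HOXD10, the member by which Ecto stood apart, had 25.5, 30.3 and 28.3 CPM with GV against 21.1, 19.5 and 21.6 CPM in untreated cells (0.42 ± 0.06, edgeR adjusted p = 7.9e-06). In both genes each NT+GV library lay above each untreated one. No Ecto member reached 2-fold with GV alone. Markers moved beside these changes in Ecto: the squamous sum was 5759 to 5921 CPM in NT+GV against 7326 to 7681 CPM in NT+noGV. The simple epithelium sum was 3069 to 3271 CPM against 4383 to 4620 CPM, and the Mullerian sum 38.8 to 43.6 CPM against 24.9 to 27.8 CPM. In Endo the squamous sum was 15558 to 16603 CPM against 20065 to 20556 CPM, and the Mullerian sum 65.3 to 75.5 CPM against 45.3 to 51.6 CPM. Of the 7 Mullerian markers, 3 averaged 1 CPM or more in Ecto NT+GV and 2 in Endo NT+GV. PAX8 alone averaged 48.4 CPM in untreated Endo, so that the untreated sum there was mostly 1 gene. The part of these shifts in the HOX changes was not tested.

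Endo showed the opposite lean. HOXB9 had 1.91, 1.9 and 1.57 CPM in NT+GV against 3.4, 4.47 and 4.84 CPM in NT+noGV (-1.23 ± 0.14, edgeR adjusted p = 1.2e-08), and HOXD8 had 3.79, 3.46 and 3.64 CPM against 5.79, 6.24 and 5.97 CPM (-0.72 ± 0.11, edgeR adjusted p = 7.4e-07). HOXD4 had 0.134, 0.202 and 0.126 CPM with GV against 0.597, 0.467 and 0.355 CPM without (-1.57 ± 0.39, edgeR adjusted p = 0.00092). HOXC6 went the other way, with 0.504, 0.49 and 0.659 CPM in NT+GV against 0.299, 0.1 and 0.258 CPM in NT+noGV (1.33 ± 0.37, edgeR adjusted p = 0.0031). HOXD8 fell in VK2 too, with 4.22, 4.39 and 3.88 CPM in NT+GV against 7.32, 6.95 and 6.66 CPM in NT+noGV (-0.74 ± 0.11, edgeR adjusted p = 6.9e-06), while HOXA7, which rose in Ecto, fell in VK2 (-0.36 ± 0.10, edgeR adjusted p = 0.0091; 0.1 at most without VK2 NT+GV replicate 1 or VK2 NT+noGV replicate 3).

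With GV present, more HOX members rose than fell with putrescine in each line. In PUT+GV against NT+GV, 20 of 33 members rose and 3 fell in Ecto (31.5% and 24.9% of all genes), 12 of 23 rose and 0 fell in Endo (27.9% and 28.2%), and 15 of 32 rose and 2 fell in VK2 (29% and 31.4%). The HOX medians were 0.42, 0.33 and 0.34 on the log2 scale, against 0.07, 0.03 and 0.01 over all genes. At least 2-fold rises numbered 5 in Ecto, 1 in Endo and 5 in VK2, beside 7.85%, 6.89% and 9.39% of all genes. HOXA4, HOXA5, HOXA10, HOXA11, HOXB6 and HOXB7 rose in all 3 lines, out of 22 members tested in all 3 (27.3%, against 13.8% of all genes tested in all 3). Without Endo PUT+GV replicate 3 the Endo count was 7 in place of 12. Of the 6 genes, HOXA5, HOXA11 and HOXB6 passed in all 3 lines under every alternative. HOXA10 in Endo (edgeR adjusted p = 0.044) was lost without any 1 of the 6 libraries compared (up to 0.18), HOXA10 in VK2 without NT+GV replicate 2 or 3 or PUT+GV replicate 1 (up to 0.14), HOXA4 in Endo without NT+GV replicate 2 or 3 or PUT+GV replicate 3 (up to 0.41) and HOXA4 in VK2 without PUT+GV replicate 3 (0.051). HOXB7 was lost in Ecto without any library compared other than NT+GV replicate 2, in Endo without NT+GV replicate 3 or PUT+GV replicate 3 and in VK2 without any other than PUT+GV replicate 2 (adjusted p up to 0.36, 0.28 and 0.1).

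The members that rose most in Ecto with PUT+GV were in cluster C. HOXC6 had 3.48, 4.12 and 3.43 CPM in PUT+GV against 1.28, 1.52 and 1.72 CPM in NT+GV (1.34 ± 0.21, edgeR adjusted p = 6.1e-06), and HOXC11 had 2.77, 4.31 and 3.43 CPM against 1.63, 1.38 and 1.3 CPM (1.34 ± 0.17, edgeR adjusted p = 1.5e-07). HOXC5 had 2.52, 1.3 and 2 CPM against 0.325, 0.803 and 0.901 CPM (1.57 ± 0.38, edgeR adjusted p = 0.0013), a value limited by the exons it shares with its neighbours. In cluster A, HOXA4 had 6.69, 6.74 and 7.24 CPM against 3.5, 3.5 and 3.63 CPM (1.01 ± 0.10, edgeR adjusted p = 4e-09). HOXD3 had 0.84, 0.387 and 0.593 CPM against 0.35, 0.258 and 0.318 CPM (1.00 ± 0.32, edgeR adjusted p = 0.0097), a call lost without Ecto PUT+GV replicate 1 (adjusted p = 0.089). The members of Ecto that fell, HOXD8, HOXD9 and HOXD10, lie side by side in cluster D, at -0.54 ± 0.10, -0.34 ± 0.09 and -0.25 ± 0.06.

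HOXA5, a regulator of lung and mammary epithelium, was the member that rose at least 2-fold with PUT+GV in Endo, at 1.94, 1.9 and 2.34 CPM against 0.537, 0.981 and 0.973 CPM in NT+GV (1.30 ± 0.22, edgeR adjusted p = 6.5e-06). In VK2 it had 1.42, 1.62 and 1.64 CPM against 0.624, 0.642 and 0.519 CPM (1.40 ± 0.24, edgeR adjusted p = 5.9e-06). In VK2, HOXB5 also rose, at 2.24, 1.89 and 1.34 CPM against 0.992, 0.543 and 0.672 CPM (1.30 ± 0.24, edgeR adjusted p = 2e-05), as did HOXC8, at 0.736, 0.738 and 0.491 CPM against 0.367, 0.247 and 0.275 CPM (1.13 ± 0.36, edgeR adjusted p = 0.008). Untreated VK2 had 0.763, 0.586 and 0.41 CPM of HOXC8, which overlapped with PUT+GV. HOXD11 and HOXB8 passed the test at low counts: HOXD11 had 0.425, 0.472 and 0.393 CPM against 0.22, 0.0987 and 0.122 CPM (edgeR adjusted p = 0.014), lost without VK2 NT+GV replicate 2 or 3 (up to 0.066), and HOXB8 had 0.34, 0.236 and 0.655 CPM against 0.147, 0.148 and 0.183 CPM (edgeR adjusted p = 0.039), lost without VK2 PUT+GV replicate 3 or any VK2 NT+GV library (up to 0.26).

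**Figure D3:**
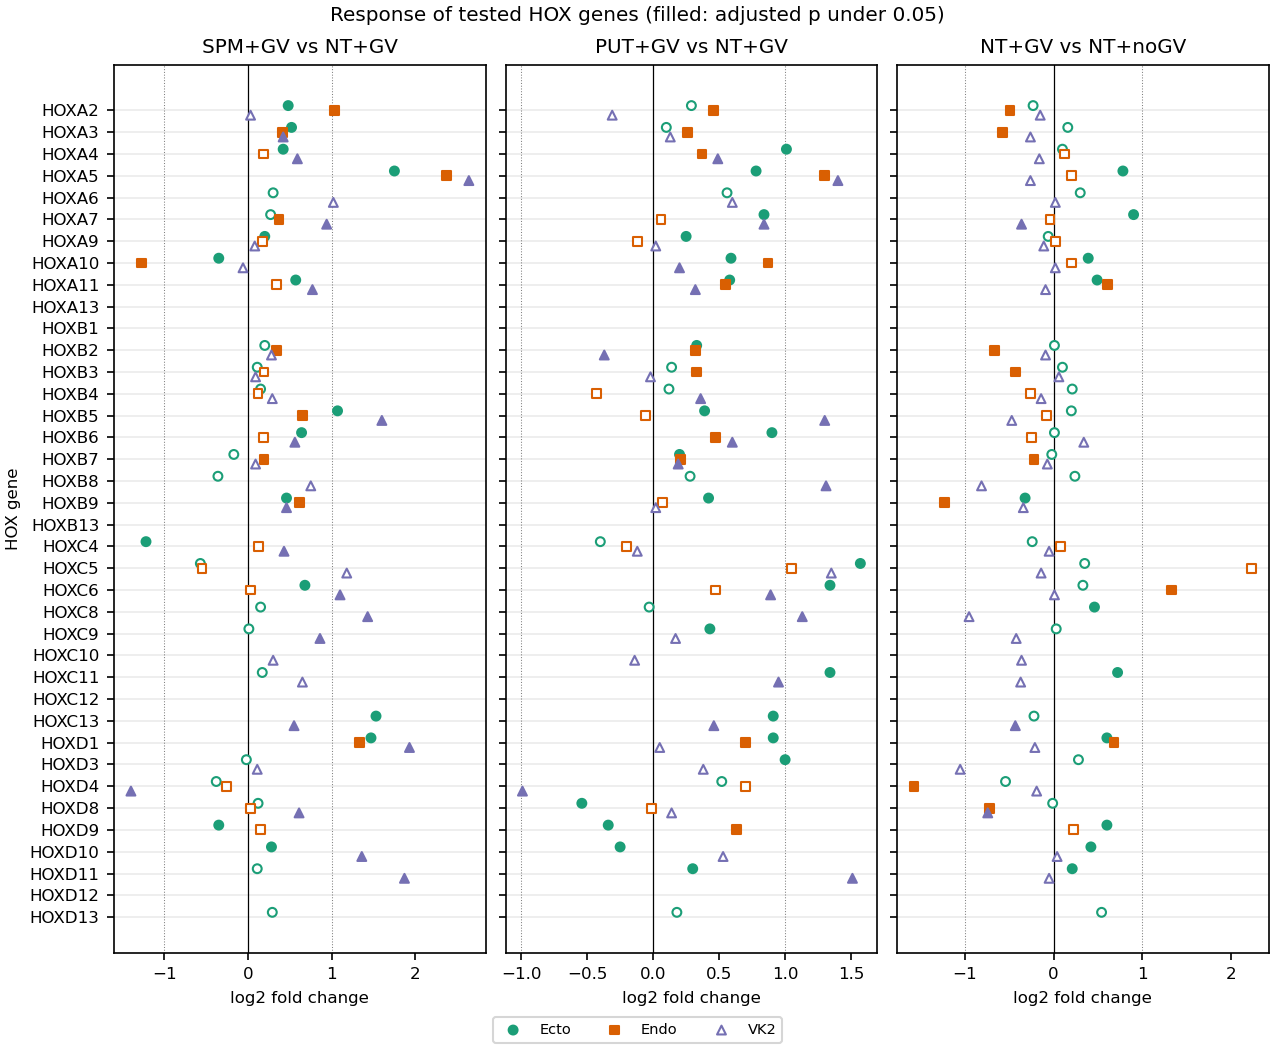
Log2 fold change of tested HOX genes, ordered by cluster, for SPM+GV against NT+GV, PUT+GV against NT+GV and NT+GV against NT+noGV; circles are Ecto, squares Endo and triangles VK2, filled where the adjusted p was under 0.05. HOXA5 rose with PUT+GV and with SPM+GV in all 3 lines, up to 2.64 in VK2 with SPM+GV.

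With spermine and GV, HOXA5 and HOXD1 rose at least 2-fold in all 3 lines. In SPM+GV against NT+GV, 14 of 33 members rose and 3 fell in Ecto (28.5% and 27.5% of all genes), 10 of 23 rose and 1 fell in Endo (21.9% and 21.1%), and 18 of 32 rose and 1 fell in VK2 (27.9% and 30.3%). The HOX medians were 0.20, 0.19 and 0.58, against -0.02, -0.01 and -0.02 over all genes. At least 2-fold rises numbered 5, 3 and 7 in Ecto, Endo and VK2, beside 11%, 3.83% and 8.16% of all genes. Of the 22 members tested in all 3 lines, 6 rose in each (27.3%, against 13.9% of all genes tested in all 3), HOXA3, HOXA5, HOXB5, HOXB9 and HOXD1 among them. The sign was the same in all 3 lines for 19 of the 22 members (86.4%), against 60% of all genes. For PUT+GV it was the same for 13 (59.1%, against 61.4%), for GV alone for 7 (31.8%, against 47.4%) and for the difference by GV for SPM for 12 (54.5%, against 52.1%). None of the rises of these genes was lost under any alternative, left-out libraries included, and the 3 lines have separate NT+GV references. Rises are against NT+GV, and SPM+GV and PUT+GV were not tested against untreated cells. In Endo, HOXA3 and HOXB9 fell with GV alone by -0.57 ± 0.08 and -1.23 ± 0.14. Their rises there with SPM+GV were smaller, at 0.41 ± 0.08 and 0.62 ± 0.15.

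HOXA5 rose most in each line. It had 4.41, 4.82 and 4.62 CPM in Ecto SPM+GV against 1.4, 1.58 and 1.27 CPM in Ecto NT+GV (1.75 ± 0.16, edgeR adjusted p = 1.5e-09). In Endo the values were 4.07, 4.06 and 4.8 CPM against 0.537, 0.981 and 0.973 CPM (2.37 ± 0.21, edgeR adjusted p = 8.6e-11), and in VK2 3.35, 4.02 and 3.26 CPM against 0.624, 0.642 and 0.519 CPM (2.64 ± 0.23, edgeR adjusted p = 1.2e-11). The lowest SPM+GV library was above 3 CPM and the highest NT+GV library below 1.6 CPM. The untreated levels of HOXA5 did not separate the lines (0.477 ± 0.0773, 0.425 ± 0.0461 and 0.409 ± 0.12 CPM per kb in Ecto, Endo and VK2).

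HOXD1, the 3′ end member of cluster D, rose as well. The gene, whose promoter is printed above, had 3.92, 5.4 and 4.91 CPM in SPM+GV against 1.78, 1.72 and 1.8 CPM in NT+GV in Ecto (1.47 ± 0.15, edgeR adjusted p = 4e-09), 2.78, 3.25 and 3.46 CPM against 1.48, 1.33 and 0.973 CPM in Endo (1.33 ± 0.19, edgeR adjusted p = 7.6e-07), and 3.53, 4.46 and 3.11 CPM against 1.25, 0.987 and 0.824 CPM in VK2 (1.93 ± 0.23, edgeR adjusted p = 1.5e-08). For HOXD1, no SPM+GV library overlapped with an NT+GV library of its line.

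In cluster B, HOXB5, the paralog of HOXA5, had 5.02, 5.08 and 5.04 CPM in Ecto SPM+GV against 1.9, 2.64 and 2.92 CPM in NT+GV (1.07 ± 0.13, edgeR adjusted p = 2e-07) and 2.26, 2.35 and 1.88 CPM in VK2 against 0.992, 0.543 and 0.672 CPM (1.60 ± 0.24, edgeR adjusted p = 9e-07). In Endo its values were 3.21, 2.18 and 2.78 CPM against 1.58, 1.9 and 1.76 CPM (0.65 ± 0.18, edgeR adjusted p = 0.004). HOXC13, at the 5′ end of cluster C, rose in Ecto, with 5.48, 5.77 and 5.66 CPM against 2.05, 1.81 and 2.17 CPM (1.53 ± 0.14, edgeR adjusted p = 5.3e-10). HOXA2 rose 2-fold in Endo, with 7.19, 5.94 and 8.26 CPM against 3.9, 3.55 and 3.14 CPM (1.03 ± 0.11, edgeR adjusted p = 7.7e-09).

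In VK2, members of clusters C and D at low levels rose too. HOXD11 had 0.451, 0.609 and 0.543 CPM in VK2 SPM+GV against 0.22, 0.0987 and 0.122 CPM in NT+GV (1.87 ± 0.53, edgeR adjusted p = 0.0031), and HOXD10 had 0.903, 0.893 and 0.888 CPM against 0.257, 0.444 and 0.397 CPM (1.36 ± 0.33, edgeR adjusted p = 0.00079). Both stayed far below the 21.1, 19.5 and 21.6 CPM of HOXD10 in untreated Ecto. HOXC8 had 0.677, 0.771 and 0.888 CPM against 0.367, 0.247 and 0.275 CPM (1.43 ± 0.37, edgeR adjusted p = 0.0014), and HOXC6 had 1.5, 1.58 and 1.43 CPM against 0.808, 0.642 and 0.733 CPM (1.10 ± 0.29, edgeR adjusted p = 0.0017). HOXC8 stood at 0.763, 0.586 and 0.41 CPM in untreated VK2, which overlapped with SPM+GV. The VK2 SPM+GV libraries were the shallowest group, at 20152143 to 26810845 counts.

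Few members fell with SPM+GV, and the falls past 2-fold were of members at low levels. Low levels were not particular to the falls: in VK2 NT+GV, each library had less HOXA5, which rose, than HOXD4, which fell. HOXD4 fell in VK2, with 0.414, 0.243 and 0.444 CPM in SPM+GV against 0.992, 0.839 and 1.16 CPM in NT+GV (-1.40 ± 0.31, edgeR adjusted p = 0.00027). HOXA10 in Endo had 0.0925, 0.111 and 0.114 CPM against 0.302, 0.202 and 0.282 CPM (-1.27 ± 0.48, edgeR adjusted p = 0.035), a call lost without any 1 of the SPM+GV libraries and without NT+GV replicate 1 or 3 (adjusted p up to 0.13). HOXC4 in Ecto had 0.214, 0.116 and 0.129 CPM against 0.35, 0.43 and 0.345 CPM (-1.22 ± 0.48, edgeR adjusted p = 0.032), lost without Ecto NT+GV replicate 2, SPM+GV replicate 2 or SPM+GV replicate 3 (up to 0.11). The other falls were in Ecto and smaller, at -0.35 ± 0.11 for HOXA10 (edgeR adjusted p = 0.01, lost without NT+GV replicate 3 or SPM+GV replicate 2, up to 0.13) and -0.35 ± 0.09 for HOXD9 (edgeR adjusted p = 0.0025).

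**Figure D4:**
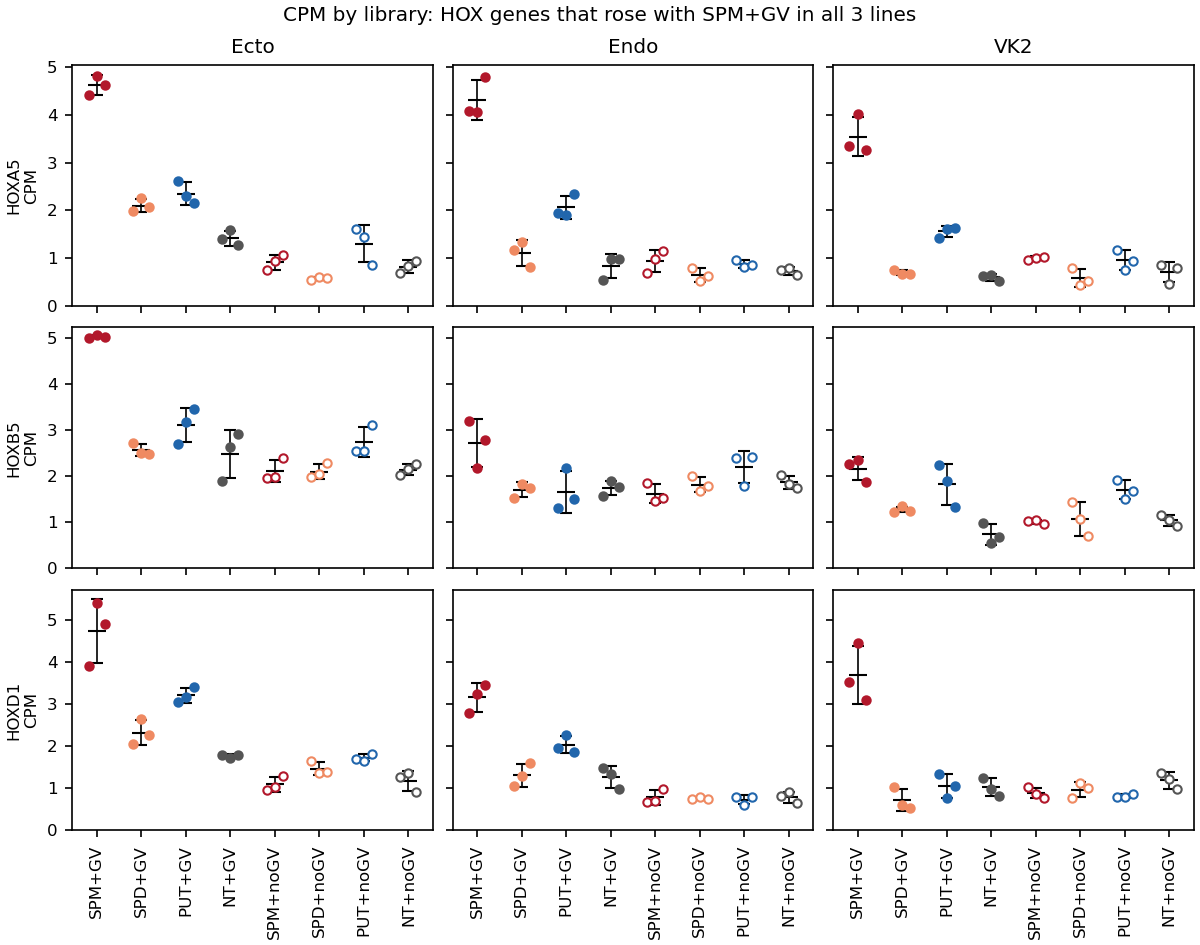
CPM of HOXA5, HOXB5 and HOXD1, which rose with SPM+GV in all 3 lines, by line and condition; points are libraries (filled with GV, open without), with the mean and SD of the 3 libraries of a group. HOXA5 lay at 3.26 CPM or more in every SPM+GV library and at 1.58 CPM or less in every NT+GV library.

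For several HOX members the change with spermine was more upward with GV than without. The change with SPM in the presence of GV minus that in its absence passed the test for 9 upward members and 1 downward in Ecto (36.3% of all genes changed), 9 and 0 in Endo (24.3%) and 16 and 0 in VK2 (38.9%). The members tested numbered 33, 23 and 32, out of 19459, 18741 and 18474 genes. Upward and downward differences over all genes numbered 3697 and 3367 in Ecto, 2650 and 1910 in Endo and 3137 and 4048 in VK2. The HOXA5 value for Ecto was 1.58 ± 0.26, with 2.02 ± 0.33 in Endo and 2.14 ± 0.33 in VK2, and for HOXD1 1.54 ± 0.23, 1.35 ± 0.30 and 2.34 ± 0.34. HOXA3, HOXA5, HOXA9, HOXB5, HOXB9 and HOXD1 were among the 7 members that passed upward in all 3 lines, beside 7.1% of all genes tested in all 3. HOXB5 in Endo (edgeR adjusted p = 0.017) was lost without Endo SPM+GV replicate 1 (0.061). An upward difference need not be a rise with GV. HOXA9 fell by 0.31 without GV in both Endo and VK2. With GV it changed by 0.17 and 0.08 there, neither of which passed (edgeR adjusted p = 0.11 and 0.2). HOXB9 in VK2 changed by -0.34 without GV and by 0.46 with it. Without GV, HOXD1 had 0.964, 1.03 and 1.3 CPM in Ecto SPM+noGV against 1.27, 1.36 and 0.902 CPM in NT+noGV, and HOXA5 had 0.746, 0.937 and 1.06 CPM against 0.682, 0.831 and 0.948 CPM. These groups overlapped.

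For putrescine, the same difference by GV was upward for 5 members and downward for 3 in Ecto (26.4% of all genes changed), upward for 8 in Endo (34.8%) and upward for 8 in VK2 (27.6%). All genes upward and downward numbered 2809 and 2337 in Ecto, 2790 and 3729 in Endo and 1815 and 3287 in VK2. In Ecto HOXB9 led at 1.04 ± 0.11 (edgeR adjusted p = 2.5e-07). The VK2 count was 5 without VK2 NT+noGV replicate 3, VK2 PUT+GV replicate 3 or VK2 PUT+noGV replicate 2.

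**Figure D5:**
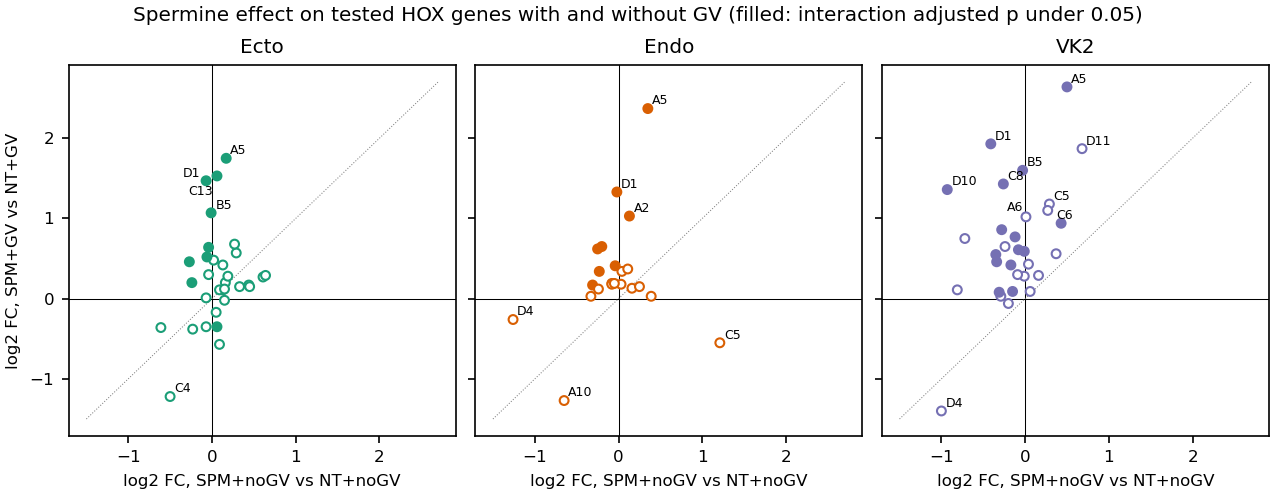
Log2 change of tested HOX genes with spermine in the presence of GV (SPM+GV against NT+GV, vertical) and in its absence (SPM+noGV against NT+noGV, horizontal) in Ecto, Endo and VK2; filled points passed the test of the difference, and the dotted line marks equal changes. HOXA5 and HOXD1 lay above 1.3 with GV in each line, and neither had a called change without GV.

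Without GV, spermine and putrescine gave lower counts of changed HOX genes, as they did over all genes, so that the drop is not particular to HOX genes. SPM+noGV against NT+noGV gave 4 members up and 3 down in Ecto, 0 up and 3 down in Endo and 2 up and 4 down in VK2, beside 23.5%, 18.1% and 33% of all genes changed. Over all genes, 2196 rose and 2376 fell in Ecto, 1503 and 1884 in Endo and 3206 and 2882 in VK2. The Ecto count was 2 without Ecto NT+noGV replicate 1 and 3 without Ecto SPM+noGV replicate 1, and the Endo count was 1 without Endo NT+noGV replicate 1 or Endo SPM+noGV replicate 2. HOXA9 fell in each line, at -0.24 ± 0.05, -0.31 ± 0.09 and -0.31 ± 0.05 in Ecto, Endo and VK2, the Endo call being lost without Endo NT+noGV replicate 1 (edgeR adjusted p = 0.062). HOXD4 fell in Endo, with 0.258, 0.14 and 0.17 CPM in SPM+noGV against 0.597, 0.467 and 0.355 CPM in NT+noGV (-1.26 ± 0.37, edgeR adjusted p = 0.016, lost without Endo NT+noGV replicate 1 or SPM+noGV replicate 2 or 3, up to 0.098), and in VK2, with 0.793, 0.468 and 0.451 CPM against 1.28, 1.13 and 1.07 CPM (-1.0 ± 0.27, edgeR adjusted p = 0.0045).

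PUT+noGV against NT+noGV gave 14 members up and 2 down in Ecto, 0 up and 5 down in Endo and 4 up and 4 down in VK2, beside 46.8%, 31.9% and 45% of all genes changed. Risen and fallen genes numbered 4656 and 4458 in Ecto, 2924 and 3047 in Endo and 4064 and 4250 in VK2. In Ecto, HOXB9 had 8.41, 9.55 and 8.84 CPM in PUT+noGV against 15.7, 12.6 and 13.4 CPM in NT+noGV (-0.62 ± 0.08, edgeR adjusted p = 7.2e-07), and HOXC6 had 1.95, 2.1 and 2.66 CPM against 1.44, 1.02 and 1.09 CPM (0.92 ± 0.23, edgeR adjusted p = 0.0015). In VK2, HOXB6 had 4.17, 4.21 and 4.27 CPM against 2.38, 2.42 and 1.89 CPM (0.93 ± 0.14, edgeR adjusted p = 1.2e-06). HOXD10 in VK2 had 0.146, 0.182 and 0.129 CPM against 0.214, 0.39 and 0.473 CPM (-1.18 ± 0.41, edgeR adjusted p = 0.019), a call lost without NT+noGV replicate 2 or 3 or without PUT+noGV replicate 1 or 3 (up to 0.16). The Endo count was 3 without Endo NT+noGV replicate 1 or Endo PUT+noGV replicate 1.

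Fewer HOX genes passed the test with spermidine than with spermine in each line, as was so over all genes. SPD+noGV against NT+noGV gave 0 changed members in each line by edgeR and by DESeq2, with 3, 0 and 1 members at an unadjusted p under 0.05 in Ecto, Endo and VK2, beside 0.303%, 0.181% and 0.46% of all genes changed. With GV, SPD+GV against NT+GV gave 7 risen members of 33 tested in Ecto, and 0 fell. Of all 19459 genes tested there, 1270 rose and 1285 fell (13.1% changed). In Endo 0 of 23 members changed, beside 13.9% of all genes. That count was 0 by DESeq2, 1 with the replicate block and 1 with a stricter filter, and 3 members had an unadjusted p under 0.05. In VK2, of 32 members 1 rose and 1 fell, beside 12.7% of all genes changed. The 7 in Ecto were HOXA4, HOXA5, HOXA7, HOXA11, HOXB9, HOXC11 and HOXD11, led by HOXA7 at 0.70 ± 0.12 (edgeR adjusted p = 0.0005). The Ecto count was 3 without Ecto NT+GV replicate 1, 4 without Ecto NT+GV replicate 2, 1 without Ecto SPD+GV replicate 2, and 8 without the library that stood apart. In VK2, HOXB5 rose by 0.77 ± 0.25 (edgeR adjusted p = 0.037; up to 0.14 when any of the libraries compared other than NT+GV replicate 1 was left out), and the VK2 count of changed members was 0 without VK2 SPD+GV replicate 2, and 1 without VK2 NT+GV replicate 2 or VK2 SPD+GV replicate 1 or 3.

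The difference by GV for SPD passed for 2 members in Ecto (3.13% of all genes), HOXA5 at 1.10 ± 0.28 and HOXB9 at 0.46 ± 0.11, for 0 in Endo (3.45%; 0 by DESeq2, 2 at an unadjusted p under 0.05) and for 0 in VK2 (0.352%; 0 by DESeq2, 5 at an unadjusted p under 0.05). The Ecto count ran between 0 and 2 when any 1 of its libraries was left out, and was 0 without Ecto NT+GV replicate 1, Ecto SPD+GV replicate 2 or Ecto SPD+GV replicate 3.

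Spermine is spermidine with 1 more aminopropyl group, and both were given at 400 µM for the same time, so that they can be set side by side directly. Putrescine, which lacks both aminopropyl groups, was given at 4 mM and is not compared with them. In SPM+GV against SPD+GV, 9 members were higher and 5 lower in Ecto (53.8% of all genes changed), 10 and 2 in Endo (44.6%) and 20 and 1 in VK2 (52.6%). Among all genes, 5366 were higher and 5098 lower in Ecto, 4389 and 3968 in Endo and 4639 and 5073 in VK2. HOXA3, HOXA5, HOXB5 and HOXD1 were among the 5 members higher with SPM in all 3 lines, beside 12.4% of all genes tested in all 3. HOXA5 had 4.41, 4.82 and 4.62 CPM in Ecto SPM+GV against 1.98, 2.26 and 2.06 CPM in SPD+GV (1.17 ± 0.16, edgeR adjusted p = 7.2e-07), 4.07, 4.06 and 4.8 CPM against 1.17, 1.34 and 0.811 CPM in Endo (1.95 ± 0.20, edgeR adjusted p = 2.1e-09) and 3.35, 4.02 and 3.26 CPM against 0.751, 0.673 and 0.658 CPM in VK2 (2.41 ± 0.22, edgeR adjusted p = 5e-11). HOXB8 was lower with SPM in Ecto, at 1.19, 0.987 and 1.16 CPM in SPM+GV against 1.78, 1.82 and 2.19 CPM in SPD+GV (-0.75 ± 0.15, edgeR adjusted p = 0.0002).

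Without GV, fewer members passed the test between the compounds, as was so over all genes. In SPM+noGV against SPD+noGV, 2 members were higher and 1 lower in Ecto (20.4% of all genes changed), 0 and 1 in Endo (12.6%) and 2 and 4 in VK2 (28.3%). Genes higher and lower numbered 2030 and 1949 in Ecto, 1073 and 1296 in Endo and 2801 and 2421 in VK2. The Ecto count of 3 became 0 when only the groups compared were fitted and 1 with no filter on low counts. HOXA5 had 0.746, 0.937 and 1.06 CPM in Ecto SPM+noGV against 0.539, 0.606 and 0.591 CPM in SPD+noGV (0.69 ± 0.22, edgeR adjusted p = 0.026), and 0.959, 1.01 and 1.03 CPM in VK2 against 0.799, 0.439 and 0.521 CPM (0.74 ± 0.24, edgeR adjusted p = 0.021). In Endo it had 0.696, 0.977 and 1.15 CPM against 0.796, 0.521 and 0.63 CPM, which did not pass (0.49 ± 0.25, edgeR adjusted p = 0.22, 95% interval -0.02 to 1.00). Both HOXA5 calls were lost without SPM+noGV replicate 2 or 3 of their line, and also without SPD+noGV replicate 1 in Ecto and SPD+noGV replicate 2 or 3 in VK2, with an adjusted p of up to 0.12 in Ecto and 0.11 in VK2. The VK2 count was 3 without VK2 SPD+noGV replicate 2 or VK2 SPM+noGV replicate 3, and 2 without VK2 SPM+noGV replicate 2.

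The responses themselves were set against each other between lines. The response to GV differed between Ecto and Endo for 7 HOX members, between Ecto and VK2 for 8 and between Endo and VK2 for 9, beside 28%, 27.5% and 25.8% of all genes. For PUT+GV against NT+GV the counts were 5, 11 and 8, beside 24.8%, 35% and 22.4%. The response to SPM+GV differed for 4, 11 and 6 members, beside 25.8%, 31.6% and 24.6%. For SPD+GV they were 1, 3 and 0, beside 0.722%, 5.16% and 1.13%; the 0 was also 0 by DESeq2, with 6 members at an unadjusted p under 0.05. These shares of members lay near or below those of all genes, except for SPD+GV in the comparisons with Ecto. Without VK2 NT+GV replicate 3, the Ecto and VK2 counts were 7 for PUT+GV and 7 for SPM+GV, and without VK2 NT+noGV replicate 1 the count for GV was 5.

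Of 18 long noncoding RNAs transcribed within the clusters, 10, 8 and 9 were tested in Ecto, Endo and VK2, and 2 rose in each line with SPM+GV while 2, 1 and 0 fell. HOTAIRM1, in cluster A, rose by 1.12 ± 0.07 in the Ecto line (edgeR adjusted p = 1e-12), by 0.92 ± 0.07 in Endo (edgeR adjusted p = 5.4e-13) and 1.29 ± 0.10 in VK2 (edgeR adjusted p = 6.1e-12). The library kit keeps strand, but the strand setting of the counting is not given in the sources used here, so that reads of HOTAIRM1 and of genes on the other strand may not be fully told apart. HAGLR, in cluster D, fell in Ecto (-0.67 ± 0.06, edgeR adjusted p = 1.3e-10) and Endo (-0.22 ± 0.09, edgeR adjusted p = 0.04). The genes that flank the clusters did not rise: of 8 tested, 0 rose and 6 fell with SPM+GV in each line. Beside these and the lists that follow, 28.5% of all genes rose and 27.5% fell with SPM+GV in Ecto, 21.9% and 21.1% in Endo and 27.9% and 30.3% in VK2.

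Among the partners of HOX proteins, 3 of 8 PBX, MEIS and PREP genes rose and 3 fell with SPM+GV in Ecto, 3 and 3 of 9 in Endo and 2 and 2 of 8 in VK2. MEIS1 rose in all 3 lines, at 1.06 ± 0.09 in Ecto, 0.41 ± 0.06 in Endo and 1.29 ± 0.11 in VK2, and MEIS2 rose in Ecto (1.79 ± 0.31) and Endo (0.75 ± 0.10). Of 19 Polycomb genes, 7 rose and 6 fell in Ecto, 7 and 3 in Endo and 10 and 6 in VK2. Of 13 Trithorax genes and H3K27 demethylases, 5 rose and 3 fell in Ecto, 4 and 4 in Endo and 4 and 2 in VK2. KDM6B, which removes the Polycomb mark H3K27me3, rose by 0.93 ± 0.06, 0.61 ± 0.04 and 0.60 ± 0.06 in Ecto, Endo and VK2. Of 12 tested retinoic acid genes, 4 rose and 4 fell in Ecto, 4 and 2 in Endo and 2 and 3 in VK2, while with PUT+GV 7 and 3, 8 and 2, and 8 and 1 did so, beside 31.5% and 24.9%, 27.9% and 28.2%, and 29% and 31.4% of all genes, with CRABP2 up by 1.63 ± 0.07, 1.12 ± 0.04 and 1.18 ± 0.05. None of the 3 CDX factors was tested in any line.

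Cell type markers moved beside the HOX rises. With SPM+GV, the squamous sum was 3690 to 4050 CPM in Ecto against 5759 to 5921 CPM in NT+GV, 13555 to 13971 CPM against 15558 to 16603 CPM in Endo and 27552 to 27747 CPM against 33594 to 36996 CPM in VK2, with 5 of the 6 markers falling in each line. The Mullerian sum was 59.8 to 66.9 CPM against 38.8 to 43.6 CPM in Ecto, 55.7 to 60.5 CPM against 65.3 to 75.5 CPM in Endo and 23.6 to 26.3 CPM against 14.9 to 18 CPM in VK2. Few genes made up this sum: in SPM+GV, 3, 2 and 3 of its 7 markers averaged 1 CPM or more in Ecto, Endo and VK2. The leukocyte sum was 6.79 to 7.82 CPM against 5.53 to 6.39 CPM in Ecto, 2.47 to 2.75 CPM against 1.29 to 2.02 CPM in Endo and 3.36 to 4.59 CPM against 2.26 to 3.26 CPM in VK2, with CD3E at 0 in Ecto and VK2 SPM+GV. The simple epithelium sum was 3362 to 3512 CPM against 3069 to 3271 CPM in Ecto. It was 3378 to 3445 CPM against 3140 to 3350 CPM in Endo and 2549 to 2674 CPM against 2295 to 2549 CPM in VK2. The fibroblast sum, with 1, 1 and 2 of 6 markers at 1 CPM or more in Ecto, Endo and VK2, was 28 to 33.2 CPM against 24.8 to 29.2 CPM in Ecto. It was 40.8 to 47.4 CPM against 39.1 to 42.6 CPM in Endo and 41.1 to 42.6 CPM against 36.5 to 40.4 CPM in VK2.

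With PUT+GV, the fibroblast sum was 47.1 to 51.6 CPM against 24.8 to 29.2 CPM in Ecto NT+GV. It was 63.3 to 69.7 CPM against 39.1 to 42.6 CPM in Endo and 64.5 to 65.6 CPM against 36.5 to 40.4 CPM in VK2. The endothelial sum was 4.17 to 4.28 CPM against 2.67 to 3.03 CPM in Ecto. It was 3.2 to 4.23 CPM against 1.85 to 2.25 CPM in Endo and 12.8 to 17.6 CPM against 2.42 to 2.64 CPM in VK2. The leukocyte sum was 8.52 to 10.9 CPM against 5.53 to 6.39 CPM in Ecto. It was 3.31 to 3.77 CPM against 1.29 to 2.02 CPM in Endo and 6.14 to 6.94 CPM against 2.26 to 3.26 CPM in VK2. These 3 sums did not overlap between PUT+GV and NT+GV in any line, but single genes made up most of them. In PUT+GV, at most 2 of the 6 markers of each list averaged 1 CPM or more. COL1A1 reached up to 51, 69.4 and 60.3 CPM over the libraries of Ecto, Endo and VK2. In VK2, CLDN5 reached 14.3 CPM, and no other endothelial marker passed 1.21 CPM. The sums therefore do not show a cell type. The part of the shifts with SPM+GV and PUT+GV in the HOX changes was not tested.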

How the data were processed

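RNA was measured in 72 libraries, 3 for each of 8 groups in each of 3 cell lines. Per the labels and methods, ribosome-depleted total RNA was sequenced from stranded CORALL libraries, and the authors quantified transcripts with Salmon against GENCODE 44, with GRCh38.p13 named as the genome; gene-level sums came from tximeta, and DESeq2 was their test. The deposited values are the authors' estimated counts per gene, all whole numbers, not normalized; whether molecular identifiers were used to remove duplicates is not given in the sources used here. All 62266 gene identifiers were found in GENCODE 44, and 0 columns lacked a sample. Library totals ran between 20152143 and 42767996.

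Genes were kept with edgeR's filterByExpr and scaled by TMM (factors 0.897 to 1.18). Each line was fitted by edgeR's quasi-likelihood test (version 4.0.16, R 4.3.3) as 8 groups over 24 libraries, and lines were compared in a fit of 24 groups over 72 libraries, without a replicate block. P-values are two-sided and adjusted by Benjamini-Hochberg over all genes tested; rose, fell, higher and lower refer to an adjusted p under 0.05, and ± after a log2 value is the standard error. A gene was detected at a mean of 0.1 CPM. CPM use TMM-scaled totals, and levels between genes are per kb of the union of annotated exons. Ratios with a group under 4 counts use counts over 3 untreated libraries with exact 95% intervals, or a floor of 3 counts over the group against 0.

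The genes named were the highest member of each cluster in each line, the members with the largest called 2-fold change of each comparison (at most 6), the member of each cluster that differed most between lines, and HOXA9, HOXA10, HOXA11 and HOXA13; HOXA3, HOXA7, HOXB6, HOXB9, HOXC8, HOXD8, HOXD9 and HOXD11 in other places, and genes of other lists, were chosen after their values were seen. Members and gene lists were chosen with earlier results of these data known. In simulated SPM+GV against NT+GV comparisons, edgeR found 77.8%, 72.3% and 68.8% of genes changed 2-fold in Ecto, Endo and VK2. These simulations changed 108, 112 and 112 genes 2-fold and 92, 88 and 88 genes 4-fold. In the data 10897, 8054 and 10763 genes passed. The adjusted p then sets another cut, so that the rates do not give the share found by the tests reported here. Alternatives were DESeq2 1.42.0, RLE size factors, no filter and a filter of 1 CPM in 3 libraries, only the groups compared, a replicate block, plain totals and each library left out. Promoter windows came from RefSeq. No column of the authors' own comparisons was used. Some genes are not reported here.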

Additional observations from a re-analysis of the deposited data

Results flagged for a closer look

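For the following 18 HOX members and comparisons, the responses of 2 lines differed by a test of the difference itself (edgeR, 72 libraries). The estimated difference was at least 2-fold, a cut on the estimate that was not itself tested. The members listed also reached 0.1 CPM in both lines. Without that limit, counts over all 21195 genes at this cut were as follows. GV gave 459 higher and 442 lower (Ecto minus Endo), 555 and 175 (Ecto minus VK2) and 546 and 214 (Endo minus VK2). In the same order, PUT+GV gave 239 and 380, 406 and 997, and 223 and 522. SPM+GV gave 780 and 163, 607 and 691, and 163 and 700. Values are log2 changes, then their difference ± SE; single libraries within a group of 3 were not tested for outlying HOX values.

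For GV alone, HOXA7 changed by 0.90 in Ecto and -0.36 in VK2, a difference of 1.28 ± 0.16 (adjusted p = 2.7e-09). HOXA5 changed by 0.78 in Ecto and -0.26 in VK2 (1.06 ± 0.33, adjusted p = 0.01, lost without Ecto or VK2 NT+noGV replicate 1), and HOXC8 by 0.46 and -0.95 (1.44 ± 0.43, adjusted p = 0.007, lost without VK2 NT+noGV replicate 1). Between Endo and VK2, HOXD4 changed by -1.57 and -0.19 (-1.37 ± 0.42, adjusted p = 0.014, lost without Endo NT+GV replicate 3 or Endo NT+noGV replicate 1), and HOXC6 by 1.33 and 0.01 (1.34 ± 0.49, adjusted p = 0.033, lost without Endo NT+GV replicate 3, Endo or VK2 NT+noGV replicate 2, VK2 NT+noGV replicate 3 or VK2 NT+GV replicate 2 or 3).

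For PUT+GV against NT+GV, HOXD9 fell in Ecto and rose in Endo, at -0.34 and 0.63 (-1.02 ± 0.25, adjusted p = 0.0012). HOXD4 changed by 0.52 in Ecto and 0.70 in Endo, neither of which passed the test, and fell by 0.99 in VK2, with differences of 1.47 ± 0.35 for Ecto minus VK2 (adjusted p = 0.00062) and 1.69 ± 0.46 for Endo minus VK2 (adjusted p = 0.0074). HOXB5 changed by -0.06 in Endo and 1.30 in VK2 (-1.37 ± 0.28, adjusted p = 0.00015). HOXC8 changed by -0.03 in Ecto and 1.13 in VK2 (-1.22 ± 0.42, adjusted p = 0.016, lost without VK2 NT+GV replicate 3), and HOXD11 by 0.30 and 1.51 (-1.26 ± 0.42, adjusted p = 0.015, lost without VK2 NT+GV replicate 2 or 3).

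For SPM+GV against NT+GV, HOXA2 rose more in Endo than in VK2, at 1.03 and 0.03 (1.05 ± 0.24, adjusted p = 0.00042). VK2 had the larger rises of HOXD10, at 0.28 in Ecto and 1.36 in VK2 (-1.07 ± 0.28, adjusted p = 0.0033), of HOXD11, at 0.11 and 1.87 (-1.75 ± 0.42, adjusted p = 0.00077), and of HOXC8, at 0.15 and 1.43 (-1.26 ± 0.42, adjusted p = 0.016, lost without Ecto NT+GV replicate 2 or VK2 NT+GV replicate 3). HOXC4 had -1.22 in Ecto, against 0.13 in Endo (-1.39 ± 0.44, adjusted p = 0.012, lost without Ecto NT+GV replicate 2, Ecto SPM+GV replicate 2 or 3 or Endo SPM+GV replicate 2) and 0.43 in VK2 (-1.64 ± 0.43, adjusted p = 0.0017). HOXD4 had -0.38 in Ecto and -1.40 in VK2 (1.03 ± 0.39, adjusted p = 0.039, lost without Ecto NT+GV replicate 2, Ecto SPM+GV replicate 1, VK2 NT+GV replicate 1 or 3 or VK2 SPM+GV replicate 2).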

How the results depend on the processing

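No HOX call reversed under any alternative. Of 51 counts of changed HOX members, 43 stayed within 1.5 times under DESeq2, 51 with RLE size factors, 43 with no filter, 45 with the stricter filter, 46 with only the groups compared and 47 with the replicate block; of 397 calls of single members, 54 were lost with no filter and 1 with the block, and of 393 that DESeq2 tested, 40 were lost.

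The counts that moved follow, with the reported count in parentheses and "response" for differences of responses between lines. With DESeq2 they were 1 (2) for Ecto SPD by GV, 1 (3) for Endo SPM+noGV, 5 (8) for Endo and 4 (8) for VK2 PUT by GV, 1 (2) for VK2 SPD+GV, 3 (6) for VK2 SPM+noGV, and 2 (1) and 5 (3) for the SPD+GV response of Ecto minus Endo and Ecto minus VK2. With no filter they were 3 (7) for Ecto SPD+GV, 1 (3) for Ecto SPM+noGV against SPD+noGV, 1 (3) for Endo SPM+noGV, 1 (2) for VK2 SPD+GV, 5 (8) for VK2 PUT by GV, 5 (8) and 7 (11) for the GV and PUT+GV responses of Ecto minus VK2 and 5 (8) for the PUT+GV response of Endo minus VK2. With the stricter filter they were 1 (0) for Endo SPD+GV, 5 (3) for VK2 GV, 5 (8) for VK2 PUT by GV, 2 (1) and 5 (3) for the SPD+GV responses as above and 7 (4) for the SPM+GV response of Ecto minus Endo. With only the groups compared they were 0 (3) for Ecto SPM+noGV against SPD+noGV, 0 (2) for Ecto SPD by GV, 1 (2) for VK2 SPD+GV, 3 (6) for VK2 SPM+noGV and 0 (1) for the SPD+GV response of Ecto minus Endo. With the replicate block they were 1 (0) for Endo SPD+GV, 5 (3) for VK2 GV and 2 (1) and 5 (3) for the SPD+GV responses; the block changed no other count by over 1.5 times. The cause of these shifts was not tested.

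With 1 library left out at a time, the counts ran between 0 and 2 (2) for Ecto SPD by GV, 1 and 8 (7) for Ecto SPD+GV, 2 and 7 (7) for Ecto SPM+noGV, 7 and 10 (12) for Endo PUT+GV, 3 and 5 (5) for Endo PUT+noGV, 1 and 2 (3) for Endo SPM+noGV, 2 and 5 (3) for VK2 GV, 5 and 9 (8) for VK2 PUT by GV, 0 and 2 (2) for VK2 SPD+GV and 2 and 5 (6) for VK2 SPM+noGV against SPD+noGV. For the responses they ran between 5 and 9 (8) for GV, 7 and 13 (11) for PUT+GV, 1 and 4 (3) for SPD+GV and 7 and 12 (11) for SPM+GV of Ecto minus VK2, and 0 and 2 (1) for SPD+GV of Ecto minus Endo. Leaving Ecto SPD+noGV replicate 3 out of the fits whose comparison does not hold it, an alternative chosen after seeing the data, gave 2 (1) for the last of these and moved no other count by over 1.5 times; it cost the SPM+GV call of HOXA2 in Ecto (adjusted p = 0.051).

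The labels do not say what a replicate number marks, so that the libraries were not taken as paired. Same-numbered libraries had a median correlation of deviations of 0.0379, 0.153 and 0.0867 in Ecto, Endo and VK2, against -0.0263, -0.083 and -0.0387 between other numbers, with 27, 57 and 36 of 84 pairs over 0.1, and 15, 20 and 19 of 24 libraries correlated best with their own number. This is a hint of pairing from the data, not from the design. On plain library totals, 15 of 105 untreated levels moved by more than 1 SD. Depth limits comparisons in which a member was under 0.1 CPM in both groups.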

Other observations

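Genes that work with or beside the HOX clusters also separated the lines in untreated cells. HOXA10-AS, a noncoding RNA antisense to HOXA10, averaged 12 ± 1.05 CPM in Ecto, 0.967 ± 0.198 CPM in Endo and 12.3 ± 0.97 CPM in VK2 (SD, n = 3 each), so that Ecto was above Endo by 3.63 ± 0.14 (edgeR adjusted p = 3.3e-34) and Endo below VK2 at -3.68 ± 0.14 (edgeR adjusted p = 4.3e-34). MEIS2 ran the other way, at 0.0934 ± 0.0223 CPM in Ecto, 3.85 ± 0.463 CPM in Endo and 0.101 ± 0.0353 CPM in VK2, with Ecto below Endo at -5.35 ± 0.27 (edgeR adjusted p = 9.4e-28). HAGLR, which lies in cluster D, stood at 18.9 ± 0.474 CPM in Ecto, 18 ± 1.28 CPM in Endo and 4.79 ± 0.145 CPM in VK2.

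HIBADH, a gene that flanks cluster A, fell in VK2 with SPM+GV (-1.17 ± 0.06, edgeR adjusted p = 3.6e-17) and with PUT+GV (-1.42 ± 0.06, edgeR adjusted p = 3e-19). ALDH1A3, which makes retinoic acid, fell with PUT+GV, at -0.99 in Ecto, -0.75 in Endo and -1.34 in VK2, while RARB, a retinoic acid receptor, rose with SPM+GV in Ecto (1.81 ± 0.25, edgeR adjusted p = 8.2e-07).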
